A study of Mus musculus with 7 samples.

Results

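VH2-2 (gene symbol Ighv2-2) is the mouse immunoglobulin heavy chain V segment next upstream of VH81X (Ighv5-2), on the side away from the D and JH segments. Its reads were the lines on chromosome 12, in deletional orientation to a JH4 bait, whose junction fell in a fixed window around the segment. They numbered 8430 of the 95203 lines of the V region, over 7 libraries, and VH2-2 was 1 of 158 V segments found. The junctions lay at chr12:114846136-114846530 of the files' mm9 coordinates, where the segment reads along the minus strand. All but 7 lines had their junction within 100 bases of the 3' end of the V exon. VH81X lay 9.77 kb nearer to JH4, which differs by 2 bp from the spacing of Ighv2-2 and Ighv5-2 in the GRCm38.p6 gene table, where both are V segments and neither is a pseudogene.

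The libraries were made by HTGTS (high-throughput genome-wide translocation sequencing), which sequences whatever genomic DNA has become joined to a bait, and the bait was the coding end of JH4. All came from bone marrow pro-B cells, the precursors in which the heavy chain locus rearranges, sorted as B220+CD43highIgM- from mice of 129SVE background aged 4 to 6 weeks. There were 3 libraries of genotype WT and 4 of genotype VH81X-CBEscr/scr, called mutant here, in which CBE stands for CTCF-binding element. The labels name no agent, Cre driver or transgene for either group. A line of the files is 1 read of 1 junction. Whether each library is another mouse is not stated in the labels. The p-values therefore measure the spread among these 7 libraries, which may be technical. Those of limma-voom also draw on the spread of the other V segments. Intervals cover counting error only and treat each line as independent, so that repeated PCR reads make them too narrow. DNA reads carry no cell type markers, so the sorted population could not be checked from them.

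In a pro-B cell a D segment is first joined to a JH segment, and a V segment is then joined to the DJ. RAG, the enzyme that cuts the DNA, recognises a signal beside each segment made of a heptamer, a spacer and a nonamer. CTCF is a DNA-binding protein that holds chromatin loops, and the V segments nearest to D often have a CTCF-binding element close to their signal. V segments at this end of the locus are used often in pro-B cells.

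The sequence that carries the comparison is the VH2-2 end with its flank, because it shows the signal and a CTCF-type motif side by side. It was read from the 8430 lines for the segment and from 32 lines in the opposite orientation for the flank, at chr12:114846042-114846201, minus strand, written 5' to 3'. Capitals mark, in order, the conserved cysteine codon, the heptamer, the nonamer after a spacer of 23 bases, and the letters AGGGGGC, which are part of the CTCF motif's core.
VH2-2 end and flank: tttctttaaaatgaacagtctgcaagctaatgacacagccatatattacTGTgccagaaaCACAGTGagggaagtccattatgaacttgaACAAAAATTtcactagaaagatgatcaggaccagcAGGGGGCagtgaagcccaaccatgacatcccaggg
The 32 opposite lines were spread over all libraries, with 2, 3 and 8 in WT replicates 1 to 3 and 7, 4, 3 and 5 in mutant replicates 1 to 4. The thinnest position of the flank of 100 bases was covered by 22 of them. The motif began 66 bases past the coding end, the last base before the heptamer.

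The flanks of the neighbours are shown from the heptamer on, with the same capitals for heptamer, nonamer and motif, because they place VH2-2 beside the altered element and beside the next 2 segments upstream. Each is 80 bases of minus strand. VH81X lies at chr12:114836297-114836376, VH5-4 at chr12:114855281-114855360 and VH2-3 at chr12:114869023-114869102.
VH81X, WT: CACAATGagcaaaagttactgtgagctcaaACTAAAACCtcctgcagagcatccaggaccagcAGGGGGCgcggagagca
VH81X, mutant: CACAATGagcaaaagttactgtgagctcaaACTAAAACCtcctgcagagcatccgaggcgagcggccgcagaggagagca
VH5-4: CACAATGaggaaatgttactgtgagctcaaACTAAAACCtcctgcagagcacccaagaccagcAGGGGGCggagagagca
VH2-3: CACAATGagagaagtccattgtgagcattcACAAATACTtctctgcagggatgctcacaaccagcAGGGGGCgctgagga
The mutant VH81X flank differed from WT at 10 of 80 positions, all between positions 55 and 72, so that the heptamer, the nonamer and the bases between them were unchanged and the motif was absent. In WT, all opposite lines of at least 80 bases at VH81X held the motif, 11, 1 and 4 in replicates 1 to 3. Of the mutant libraries only replicate 3 had such lines, 2 lines of 1 distinct join, and neither held the motif. VH2-2 differed from VH81X, VH5-4 and VH2-3 in its heptamer, which is CACAGTG in VH2-2 and CACAATG in the other 3. The nonamer of VH2-2 also differed from those of the other 3.

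Among the 45 V segments whose flank of 100 bases was fully covered and opened with CAC, 17 (37.8%) held AGGGGGC on either strand. These were 6 of 6 segments within 200 kb of VH81X, VH81X in WT and VH2-2 included, and 11 of 39 (28.2%) beyond. For comparison, 2.70% of 32851 promoter pieces of 100 bases from RefSeq (GRCm38.p6) held it. CACAGTG stood at the coding end of 37 of the 45 segments (82.2%), but of only 2 of the 6 within 200 kb, VH2-2 being 1 of these. A match of letters is a description and does not show that CTCF binds there.

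VH2-2 took 2.08 times its WT share of V junctions in the mutant libraries and was the most used V segment there. WT replicates 1, 2 and 3 held 1019, 584 and 797 VH2-2 lines, which were 6.04%, 5.33% and 5.35% of their 16874, 10961 and 14891 V lines. Mutant replicates 1 to 4 held 1409, 1648, 1301 and 1672 VH2-2 lines, or 11.7%, 14.1%, 9.98% and 10.6% of 12047, 11670, 13040 and 15720. The groups did not overlap, and neither did the counting intervals, which are too narrow where reads are repeated. The highest bound in WT was 6.41% and the lowest in the mutant was 9.47% (95% Wilson). The mean was 5.57% ± 0.404 in WT (SD, n = 3) and rose to 11.6% ± 1.82 in the mutant (SD, n = 4). In the limma-voom fit over all V segments, the log2 fold change of VH2-2 was 1.04 (SE 0.140, adjusted p = 1.59e-11, Benjamini-Hochberg over 129 segments tested). The same fit called 5 of 129 segments higher, which is 3.88%, and 1 lower, VH81X, so that 4.65% passed in either direction.

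Within the mutant group the libraries were not alike by these intervals, which count repeated reads as independent. Mutant replicate 2 lay above the other mutant libraries, with an interval of 13.5% to 14.8% against upper bounds of 12.3%, 10.5% and 11.1% in replicates 1, 3 and 4. Replicates 3 and 4 overlapped each other. In WT the 3 intervals all overlapped. The run of each library was taken from the name of its first read only. By that reading there were 4 runs, and 0 of them held both genotypes, so that run and genotype cannot be told apart. With run as a random block the limma-voom log2 fold change was 1.05, but that fit cannot separate run from genotype either. The correlation within runs was -0.18.

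**Figure D1:**
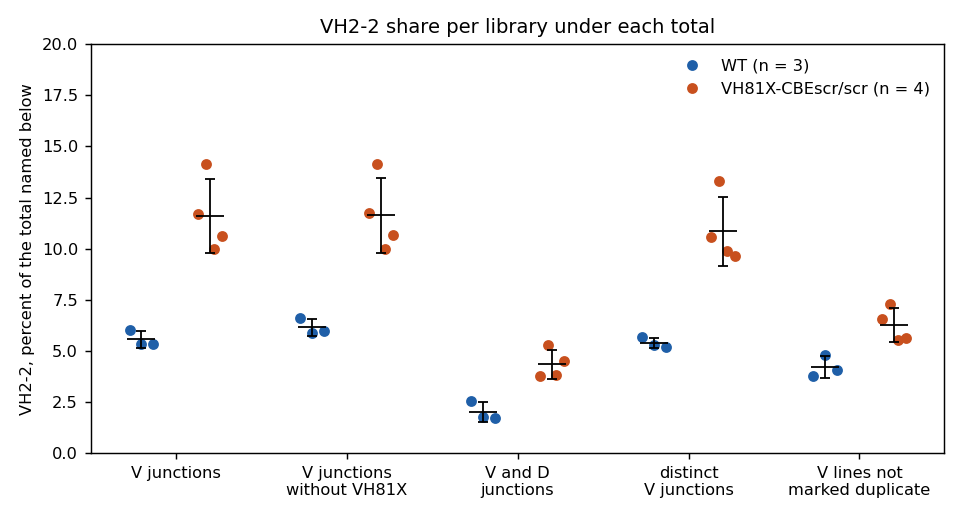
VH2-2 as a percent of each total named on the horizontal axis, 1 point per library, with the mean and SD of each genotype in black. The mutant points lie above all WT points under each of the 5 totals, by the least among lines not marked duplicate (5.55% in the lowest mutant library against 4.83% in the highest WT library).

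A share of V junctions rises when another large segment is lost, and VH81X made up 9.42% ± 0.622 of V junctions in WT (SD, n = 3) but 0.181% ± 0.140 in the mutant (SD, n = 4). It had 1511, 1006 and 1508 lines in WT and 46, 8, 14 and 26 in the mutant. VH2-2 gained 6.03 percentage points, against 9.24 lost at VH81X, and the gain came to 65.3% of the loss. The pair together held 14.99%, 14.5% and 15.5% of V junctions in WT and 12.1%, 14.2%, 10.1% and 10.8% in the mutant. In WT there were 0.674, 0.581 and 0.529 VH2-2 lines per VH81X line, and in the mutant 30.6, 206.0, 92.9 and 64.3.

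The VH2-2 difference was also present under totals that do not hold VH81X. Without VH81X lines, VH2-2 was 6.63%, 5.87% and 5.96% of the V lines of WT replicates 1 to 3. It was 11.7%, 14.1%, 9.99% and 10.7% in mutant replicates 1 to 4. With VH81X out of the library size the limma-voom log2 fold change was 0.90 (adjusted p = 7.33e-09), and 2 of 129 segments (1.55%) were called higher, VH2-2 and VH5-4. That setting moved the median log2 fold change of all tested segments from -0.04 to -0.18.

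Set against V and D lines together, VH2-2 was 2.57%, 1.77% and 1.73% in WT and 3.79%, 5.28%, 3.82% and 4.49% in the mutant. Again no mutant library fell within the WT range. The log2 difference was 1.11 (SE 0.217, exact permutation p = 0.0286, the smallest that 35 splits allow, and 0.171 adjusted over the 6 VH2-2 measures tested in this way), so it did not pass after adjustment. Among lines without the files' duplicate mark the log2 difference was 0.55 (exact permutation p = 0.0286).

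Repeated reads were frequent, and between 71.8% and 84.8% of all lines of a library carry the files' duplicate mark. Counted as distinct joins (the same junction, bait end and inserted bases once per library), VH2-2 had 660, 196 and 505 joins in WT and 625, 786, 783 and 793 in the mutant. These were 5.67%, 5.31% and 5.22% of distinct V joins in WT and 10.6%, 13.3%, 9.87% and 9.62% in the mutant, with a limma-voom log2 fold change of 0.99 (adjusted p = 2.96e-10). Counted only over lines without the mark, the shares were 3.80%, 4.83% and 4.07% in WT and 6.55%, 7.31%, 5.55% and 5.65% in the mutant. The limma-voom log2 fold change was then smaller, at 0.57 (adjusted p = 3.51e-04), and 0.50 with VH81X also out of the library size (adjusted p = 0.00236). The mark left fewer VH2-2 joins than joins of other segments. VH2-2 had 1.46 to 2.56 distinct joins for each line without the mark, against 1.30 to 1.501 for other V segments. It had the higher ratio in each library. How far this accounts for the smaller fold change was not tested.

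VH2-2 joins were read slightly more often than those of other V segments. They had 2.03 ± 0.506 lines per distinct join against 1.91 ± 0.496 (SD, n = 7), a higher value in 7 of 7 libraries (exact sign-flip permutation p = 0.0156, adjusted 0.0195). Of the 4347 distinct VH2-2 joins over all libraries, 53.6% were read on 1 line, and the most frequent join had 19 lines, 3.25% of the VH2-2 lines of WT replicate 2. In the other libraries the most frequent join was 0.615% to 1.06% of the VH2-2 lines. Over 21 pairs of libraries, 1 join was found in more than 1 library, and it had no inserted bases. The prey matched the VH2-2 consensus better than any other segment on 99.6% to 100% of lines, and 0.464% of 1461037 aligned bases differed from the files' reference. That consensus was built from the same lines, so the match cannot show that the lines as a whole were rightly placed.

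By level, VH2-2 stood second in each WT library, behind VH81X, and first in each mutant library, ahead of VH5-4. In WT, VH81X ranged from 8.95% to 10.1% of V junctions, VH2-2 from 5.33% to 6.04% and VH5-4 from 2.36% to 3.43%, and no range met its neighbour's. In the mutant, VH2-2 ranged from 9.98% to 14.1%, VH5-4 from 4.13% to 5.27% and VH2-3, the third, from 2.96% to 3.61%. Among the 129 tested segments VH2-2 had the fourth highest log2 fold change, and 8 segments (6.2%) had all 4 mutant libraries above all 3 WT libraries, VH2-2 among them.

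The 5 other segments within 100 kb upstream of VH81X had log2 fold changes from 0.16 to 1.06, and 2 of the 5 were called higher, beside 5 of all 129 (3.88%). The calls were not confined to this stretch. Segments 125 and 772 kb upstream of VH81X were also called higher (log2 fold change 0.60 and 0.61, limma-voom adjusted p = 0.0278 each). Both of these calls were lost with VH81X out of the library size (limma-voom adjusted p = 0.146 each). VH5-4, the next segment upstream of VH2-2 by 9.22 kb, rose from 2.99% ± 0.556 to 4.72% ± 0.470 (limma-voom log2 fold change 0.65, adjusted p = 8.43e-04). VH2-3, a further VH2 segment 22.96 kb upstream of VH2-2, rose from 2.13% ± 0.174 to 3.26% ± 0.270 (0.61, limma-voom adjusted p = 0.00468). The call of VH2-3 was lost with VH81X out of the library size (0.47, limma-voom adjusted p = 0.0747). VH5-6 (1.63% in WT and 2.26% in the mutant), VH2-4 (0.119% and 0.259%) and VH5-9 (0.213% and 0.223%) did not pass, with limma-voom adjusted p-values of 0.123, 0.128 and 0.960. The median log2 fold change of the 5 was 0.61, or 0.47 with VH81X out of the library size, beside -0.04 and -0.18 over all tested segments. VH5-1, an annotated pseudogene downstream of VH81X, was at 0.403% ± 0.275 in WT and 0.265% ± 0.0804 in the mutant (log2 fold change -0.47, limma-voom adjusted p = 0.696).

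**Figure D2:**
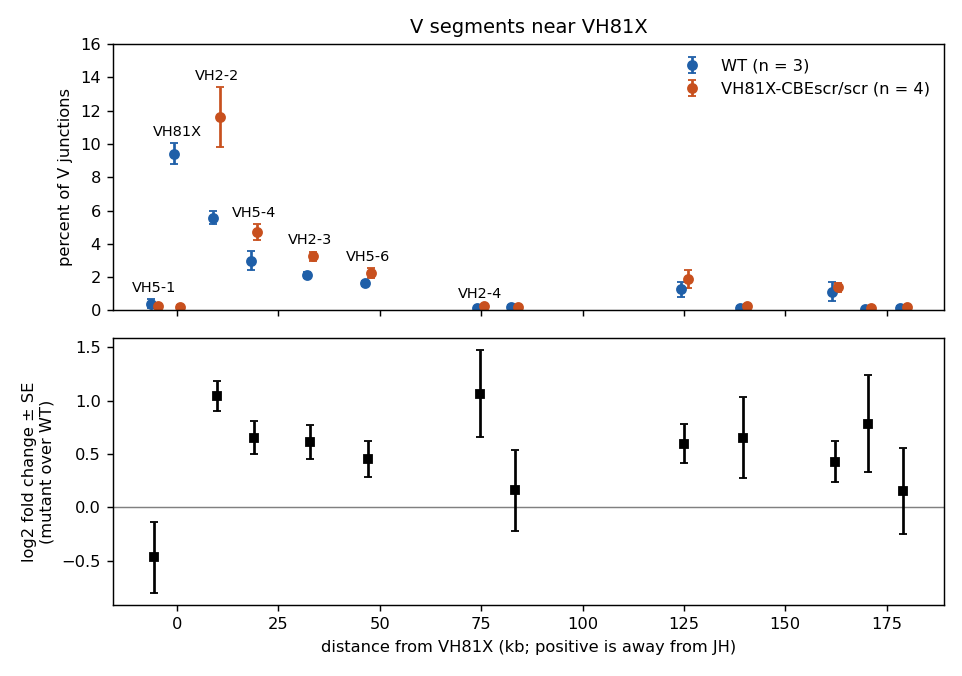
Upper panel: percent of V junctions (mean ± SD) of each V segment against its distance from VH81X in kb, for 3 WT and 4 mutant libraries. Lower panel: limma-voom log2 fold change ± SE of the same segments without VH81X, in which VH2-2, the first upstream, stands at 1.04, VH5-4 at 0.65 and VH2-3 at 0.61.

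Whether VH2-2 changed by more than its neighbours was tested on ratios of counts within a library, which no total enters. There were 1.76, 2.25 and 1.68 VH2-2 lines per VH5-4 line in WT and 2.22, 2.93, 2.15 and 2.57 in the mutant. The ranges overlapped, and the log2 difference was 0.38 (SE 0.166, exact permutation p = 0.143, adjusted 0.286). Per VH2-3 line there were 2.69, 2.41 and 2.78 VH2-2 lines in WT and 3.24, 4.42, 3.05 and 3.60 in the mutant. All mutant ratios lay above the WT ratios, with a log2 difference of 0.43 (SE 0.132, exact permutation p = 0.0571, adjusted 0.171). Neither ratio passed after adjustment over 6 measures. Among lines without the duplicate mark the log2 differences were 0.12 and 0.083.

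Among segments averaging at least 10 junctions in each group, the 3 whose shares moved most like that of VH2-2 over the 7 libraries were all near it. By the root mean square difference of log2 share, each centred on its own mean, these were VH2-4 (0.202), VH5-4 (0.260) and VH2-3 (0.270). That measure includes the shift between the genotypes given above, so it is not a separate result. VH2-4 had 19, 15 and 16 lines in WT and 29, 42, 32 and 30 in the mutant, and is measured far less precisely than VH2-2. The stretch of 45 bases up to the cysteine codon, the part of these segments nearest to the join, shows how alike they are in sequence, with capitals where a base differs from VH2-2.
VH2-2: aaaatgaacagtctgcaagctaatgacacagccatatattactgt
VH2-4: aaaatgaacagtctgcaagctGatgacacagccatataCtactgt
VH2-3: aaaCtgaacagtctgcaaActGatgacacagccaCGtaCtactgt
VH5-4: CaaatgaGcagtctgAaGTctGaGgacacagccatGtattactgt
VH81X: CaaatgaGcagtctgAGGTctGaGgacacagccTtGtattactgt
The differences from VH2-2 numbered 2 in VH2-4, 6 in VH2-3, 8 in VH5-4 and 10 in VH81X.

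By identity of at least 80% over 90 bases, 15 other segments were VH2-like, and 14 of them were tested. Of the 14, 1 was called higher (VH2-3) and 8 had a positive log2 fold change, with a median of 0.11. Over all 129 tested segments, 5 (3.88%) were called higher, 57 were positive and the median was -0.04, so the VH2-like segments other than VH2-2 are not set apart by these counts. The 12 tested that lie over 100 kb upstream had 0 calls by limma-voom (0 at an unadjusted p under 0.05, and 0 calls by limma on log2 shares), 6 positive values and a median of 0.01, which is near the values over all segments. Their identity to VH2-2 was 92.2% to 97.8%. All 13 VH2-like segments over 100 kb upstream, tested or not, together held 6.57% in WT and 7.42% in the mutant.

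The mean number of bases missing from the VH2-2 coding end did not differ between the genotypes beyond the spread of the libraries. The full end or a match running past it made up 38.7%, 40.4% and 40.7% of VH2-2 lines in WT replicates 1 to 3. In mutant replicates 1 to 4 it made up 42.9%, 44.8%, 40.8% and 39.7%, so that the ranges overlapped, although 3 of the 4 mutant libraries lay above all WT libraries. Lines missing more than 10 bases made up 5.18% ± 1.25 in WT (SD, n = 3) and 3.55% ± 1.61 in the mutant (SD, n = 4). For these, 3 of the 4 mutant libraries lay below all WT libraries. Neither of these 2 shares was tested. Bases missing from the end averaged 2.06, 2.40 and 2.20 in WT and 3.23, 1.65, 2.39 and 2.09 in the mutant, a difference of 0.12 (SE 0.346, exact permutation p = 0.800). It turned to -0.24 (exact permutation p = 0.286) without the 7 lines that end more than 100 bases inside the segment, and was 0.58 (exact permutation p = 0.286) among lines without the duplicate mark. An inserted base that matches the segment by chance hides a missing one, so these counts are lower limits of trimming.

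**Figure D3:**
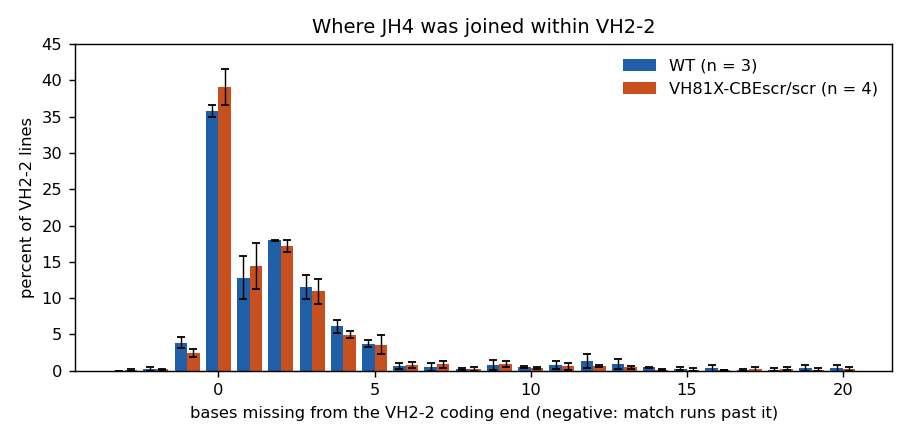
Percent of VH2-2 lines (mean ± SD over 3 WT and 4 mutant libraries) by the number of bases missing from the coding end, where negative values are matches that run past it. The untrimmed end was most frequent in both, with 35.8% in WT and 39.1% in the mutant, and 2 bases missing came next, with 17.95% and 17.2%.

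Single joins show what a line holds. The 4 below are the most read VH2-2 joins with a readable frame in each genotype, from the cysteine codon of VH2-2 to the tryptophan codon of JH4, with inserted bases (D and added bases) in capitals.
WT, in frame: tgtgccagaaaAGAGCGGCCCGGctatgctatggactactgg
WT, out of frame: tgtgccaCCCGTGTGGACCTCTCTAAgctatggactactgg
Mutant, in frame: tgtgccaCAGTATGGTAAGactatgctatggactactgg
Mutant, out of frame: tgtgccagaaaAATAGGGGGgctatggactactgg
They had 12, 18, 13 and 14 lines, the first pair in WT replicate 2 and the second pair in mutant replicate 1. Their inserts had 12, 19, 12 and 9 bases. The third is in frame by length but holds a stop codon, TAA, inside the insert. Over all lines the insert had a mean of 16.7 bases ± 0.256 (SD, n = 7), and the longest insert in any V line was 30 bases, so longer joins are not in these counts.

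Most VH2-2 joins were out of frame, in both genotypes, and this set VH2-2 apart from the V segments as a whole. The in-frame share of VH2-2 lines with a readable frame was 39.1%, 41.6% and 38.3% in WT and 33.4%, 40.7%, 44.5% and 36.6% in the mutant. The WT values lay inside the mutant range, with a difference of -0.87 percentage points (SE 2.62, exact permutation p = 0.771). Other V segments, VH81X left out, were in frame on 52.6% to 62.0% of lines. VH2-2 was lower in 7 of 7 libraries, 39.2% ± 3.60 against 58.5% ± 3.27 (SD, n = 7), a difference of -19.3 percentage points (exact sign-flip permutation p = 0.0156, the smallest possible, adjusted 0.0195 over 5 such comparisons). Of the in-frame VH2-2 lines, 22.4% ± 5.37 held a stop codon between the cysteine and the tryptophan, against 11.9% ± 1.25 in other V segments. That share was higher for VH2-2 in 7 of 7 libraries (exact sign-flip permutation p = 0.0156, adjusted 0.0195). Lines in frame without such a stop were thus 30.5% of framed VH2-2 lines, against 51.6% of other V lines. The stop codon share was not compared with that of the neighbours of VH2-2 alone.

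**Figure D4:**
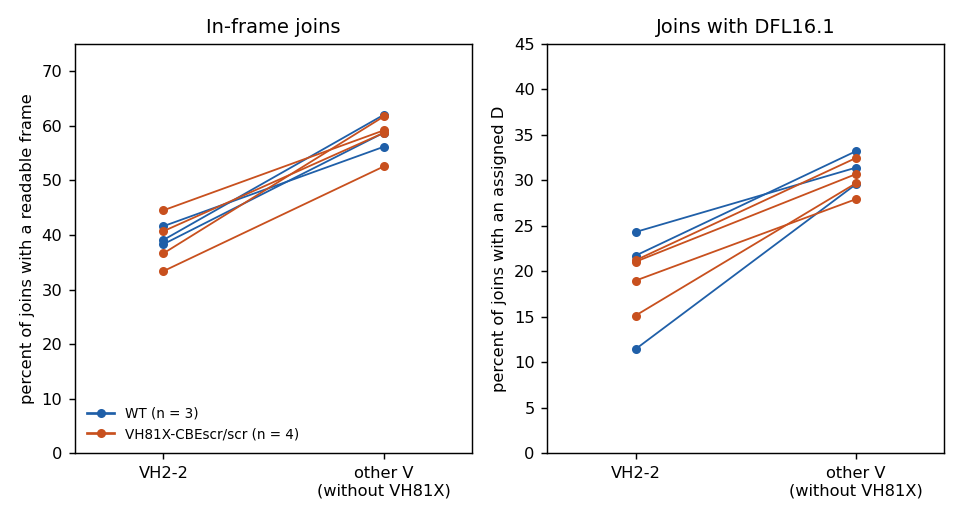
Left: percent of lines in frame, among lines with a readable frame. Right: percent of lines with DFL16.1, among lines with an assigned D. Each line joins the VH2-2 value and that of other V segments without VH81X in 1 library, and all 7 rise from VH2-2 to the other segments in both panels.

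The low in-frame share was shared with the most used neighbours of VH2-2 rather than particular to it. Among the 29 segments with at least 1000 framed lines, VH2-2 was the fifth lowest. VH81X (29.7%), VH2-3 (37.6%), VH5-4 (39.9%) and VH5-6 (42.0%) stood close by, and the other 2 below VH2-2 lay 1254 and 1404 kb upstream of VH81X, at 34.3% and 31.7%. The next of the 29 upstream of this group, at 125 and 162 kb, had 55.6% and 62.4%. VH2-like segments at 528 and 617 kb, with 92.2% identity to VH2-2, had 68.6% and 69.4%. Segments with fewer than 1000 framed lines were mixed. Of the neighbours, VH2-4 had 44.3% (176 framed lines) and VH5-9 had 56.9% (204 framed lines). Farther upstream, values ranged from low to high, with 30.3% at 1163 kb (692 framed lines) and 68.1% at 687 kb (868 framed lines) as examples. The change of VH2-2 between genotypes was as large among out-of-frame joins alone (limma-voom log2 fold change 1.08, adjusted p = 1.03e-07). The cause of the change was not tested.

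**Figure D5:**
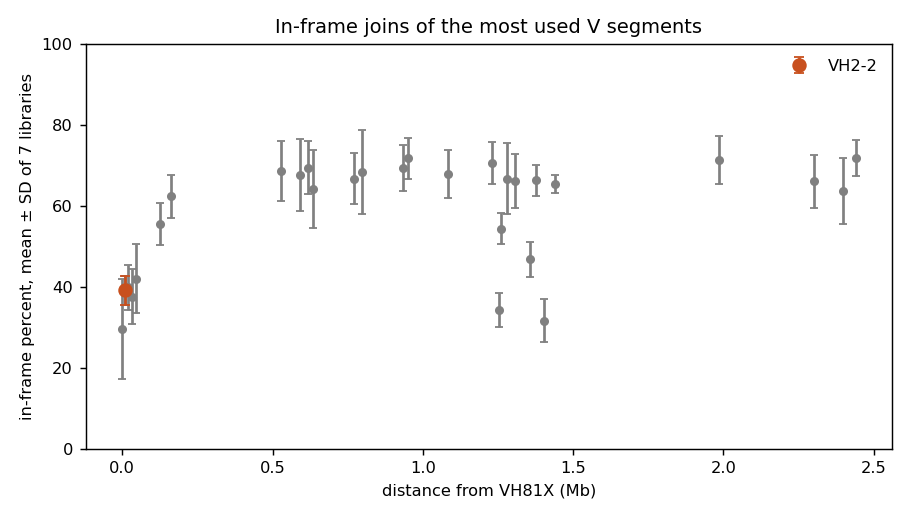
In-frame percent (mean ± SD of 7 libraries) of the 29 V segments with at least 1000 framed lines, against distance from VH81X in Mb. VH2-2 (39.2%) lies in a group of 5 low segments at the left edge, from 29.7% to 42.0%.

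The D segment inside the join was read from the inserted bases, by a match of at least 8 bases to 1 D segment. It could be assigned on 43.3% to 48.0% of VH2-2 lines, while 15.6% to 22.4% matched several D segments alike and were left out. No VH2-2 line was assigned to the D segments at 114700407, 114710077 and 114732517, although 9152, 9971 and 1030 lines joined them directly to JH4. The assigned shares therefore leave these D segments out. The coding-strand sequences of the 2 D segments assigned most often are given because they show what the match could use.
DFL16.1: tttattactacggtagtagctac
D at 114705399: cctactataggtacgac
DFL16.1, the D segment nearest to the V region, made up 24.3%, 11.5% and 21.7% of assigned VH2-2 lines in WT and 21.1%, 21.2%, 19.0% and 15.2% in the mutant. The mutant values lay within the WT range (difference -0.07 percentage points, SE 4.18, exact permutation p = 0.971). In other V segments DFL16.1 made up 28.0% to 33.2%, and VH2-2 was lower in 7 of 7 libraries, by 11.6 percentage points on average (exact sign-flip permutation p = 0.0156, adjusted 0.0195). It was lower in 7 of 7 libraries among out-of-frame joins too, 16.96% against 29.2%, and among in-frame joins, 22.99% against 32.1%. D use was not compared with that of the neighbours of VH2-2 alone, so whether they share the difference was not tested.

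The D segment whose JH-side coding end is at position 114705399 was the most frequent among assigned VH2-2 lines. It made up 36.9% ± 5.58 (SD, n = 7) of these lines, with 37.1% in WT and 36.8% in the mutant, against 19.1% ± 1.02 in other V segments. Of the lines that join JH4 directly to a D segment it made up 9.74%. That share rests on junction position and not on a match of inserted bases, so it is not on the same basis. This D was higher in VH2-2 joins than in other V joins in 7 of 7 libraries. It was singled out after its values were seen, so no test is given. DQ52, the D segment nearest to JH, made up 3.34% ± 1.497 of assigned VH2-2 lines and 2.97% ± 0.488 of those of other segments. The mean insert was slightly shorter in VH2-2 joins, by 0.32 bases in the mean of 7 libraries and in 6 of 7 of them (exact sign-flip permutation p = 0.0469, adjusted 0.0469).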

How the data were processed

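The submitters' processing notes name Bowtie2 and mm9, while versions and filters are not given in the sources used here. The deposited tables hold 1 junction per line and no column of counts, so lines were counted here, duplicate-marked lines included. Junctions in deletional orientation were clustered (gaps of at most 300 bp, at least 10 lines) into V segments. Names came from a GRCm38.p6 gene table by spacing from VH2-2 within 60 bp, so a name rests on position. Libraries held 31986 to 46915 lines, and 3 lines of the V total were 0.0178% to 0.0274%. Frames were read from the cysteine codon to the tryptophan codon, and 13 segments had no such codon found.

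limma-voom (limma 3.58.1, R 4.3.3, two-sided) was fitted over segments with a mean of at least 10 lines in either group, with V lines as library size and adjusted p under 0.05 as call. Other tests were two-sided exact permutations over libraries (Python 3.11.15, pandas 2.3.3). SciPy 1.17.1 gave the Wilson intervals, and bwa 0.7.19 the match of prey to segments. Segments named were VH2-2, VH81X, VH5-4, VH2-3, those within 100 kb, the 3 most used per genotype and the 3 most like VH2-2; a few others serve as examples, chosen after their values were seen. The segment and lists were chosen with earlier results of these data known. Alternatives covered duplicates, distinct joins, totals, filters, run and replicate blocks, and each library left out. The pairing of duplicates or distinct joins with VH81X left out, and the limit of 100 bases from the coding end, was added after seeing the data.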

Additional observations from a re-analysis of the deposited data

How the results depend on the processing

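The VH2-2 rise kept its direction and its call in all 12 other settings (log2 fold change 0.50 to 1.08, limma-voom adjusted p at most 0.0235) and with each library left out (0.94 to 1.11). Among these settings, the run block cannot separate run from genotype. The count of segments called higher, 5, was 2 with VH81X out of the library size, 3 with limma on log2 shares, 1 with the replicate block, 3 for distinct joins with VH81X out and 1 for unmarked lines with VH81X out; it was 3 to 8 with 1 library left out (8 without mutant replicate 1, 3 without mutant replicate 3), and the lower count was 1 to 2 (2 without WT replicate 2). Replicate numbers did not pair the libraries (correlations of deviations -0.28, -0.0073 and 0.12); with the replicate block the log2 difference in V and D lines was 1.09 (exact p = 0.25, the smallest 3 pairs allow), and 1.02 to 1.30 without 1 library, where 0.05 cannot be reached; it was 0.55 for unmarked lines. Over distinct joins the log2 ratio to VH5-4 was 0.36 and to VH2-3 0.44 (exact permutation p = 0.0286 each); the cause was not tested. The in-frame difference turned from -0.87 to as much as 0.94 percentage points (range -2.77 to 0.94) and missing bases from 0.12 to -0.24 within 100 bases (7 fewer lines; 0.58 for unmarked lines; -0.17 to 0.35 without 1 library). The DFL16.1 difference of -0.07 was 0.58 for unmarked lines, 1.25 with the replicate block and -3.93 to 2.51 without 1 library; the cause was not tested. The frame gap to other V segments stayed between -20.1 and -18.3. Depth limits VH2-4, with few lines.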
